A study of Mus musculus with 39 samples.

Results

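The 8 peptidases of the enterocyte brush border described here are Anpep, Enpep, Xpnpep2, Naaladl1, Dpp4, Ace, Mep1a and Mep1b. They were chosen by gene symbol, with earlier results of these data known, and all 8 were among the 16358 genes of the deposited count table. Transcripts were counted by bulk RNA sequencing in 39 libraries of whole duodenum from wild-type male C57BL/6 mice aged 8 weeks. Every mouse carried a steel cannula in the right lateral brain ventricle. Leptin-antibiotic mice (6 libraries) drank ampicillin at 1 g/L with neomycin at 0.5 g/L for 48 h and then received 3 µg of leptin through the cannula. Saline-antibiotic mice (6 libraries) drank the same antibiotics and received saline. Leptin-water mice (13 libraries) and Saline-water mice (14 libraries) drank plain water and received leptin or saline. In all 4 groups the injection was given 3 days after surgery and after 2 h without food, and the duodenum was taken 2 h later. Ampicillin and neomycin are antibacterial drugs, and leptin is a hormone of fat tissue that signals energy stores to the brain. The library names fall into a set called M (8 Saline-water and 7 Leptin-water libraries) and a set called MT (6 libraries of each of the 4 groups), and the labels do not say what separates the sets. Nothing in the labels says that libraries came from separate animals, so the p-values measure the spread between these samples, which may be technical.

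The brush border is the microvillus face of absorptive enterocytes, and its anchored peptidases carry out the last extracellular step of protein digestion. Pancreatic proteases leave short peptides, which these ectoenzymes trim from either end or cut internally, so that free amino acids, dipeptides and tripeptides can be taken up by apical transporters. Aminopeptidases remove residues from the amino end. Anpep encodes aminopeptidase N, which prefers neutral residues, Enpep encodes aminopeptidase A, which removes acidic residues, and Xpnpep2 encodes membrane aminopeptidase P, which acts before proline. Naaladl1 encodes a relative of glutamate carboxypeptidase II. Dpp4 encodes dipeptidyl peptidase IV, which releases dipeptides ending in proline or alanine and also inactivates incretin hormones. Ace encodes angiotensin-converting enzyme, which removes dipeptides from the carboxyl end. Mep1a and Mep1b encode the alpha and beta subunits of meprin, a metalloendopeptidase.

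Library totals were 30207536 to 67870777 counts, and the 8 transcripts together made up 0.214% to 0.511% of each total. The 14 enterocyte markers, which define the labelled tissue's absorptive cells, were all measured, with a summed level of 29000 to 42000 CPM (counts scaled to the library total after TMM normalisation) in Leptin-antibiotic libraries, 18200 to 32400 CPM in Saline-antibiotic libraries, 24200 to 35200 CPM in Leptin-water libraries of set MT and 21100 to 33100 CPM in Saline-water libraries of set MT. Exocrine pancreas genes, 22 of 23 listed genes measured, were high in 6 libraries (Leptin-antibiotic 3, Saline-antibiotic 1, 2 and 5, Leptin-water 6 and 10). Their mean log2 CPM ran from -0.19 to 6.37 in Leptin-antibiotic, -0.23 to 6.22 in Saline-antibiotic, -0.19 to 5.66 in Leptin-water and -0.51 to 3.87 in Saline-water libraries of set MT, and no measured pancreas gene was at 0 in all libraries of a group. They are called the high-pancreas libraries. All but Leptin-water 6 belong to set MT, and the antibiotic comparisons were repeated without those 5. Of the Saline-antibiotic group this left libraries 3, 4 and 6, whose mean log2 CPM of the 8 transcripts was 7.81, 7.84 and 7.86. The left-out Saline-antibiotic 1, 2 and 5 were lower, at 7.35, 7.54 and 7.40. The left-out Leptin-antibiotic 3 (8.27) and Leptin-water 10 (7.66) were the highest of their groups in set MT. The part of the high-pancreas libraries in any result was not tested beyond that. In whole tissue, fewer cells of a type and less RNA per cell cannot be told apart.

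The transcripts differed widely in level. Per kilobase of merged exon sequence, over the 39 libraries, Anpep had 339 ± 120 CPM per kb (SD, n = 39 for each gene) and was above every other member in 39 of 39 libraries. Mep1b followed with 147 ± 26.4 CPM per kb, above Ace in 35 of 39 libraries. Ace had 118 ± 28.5 CPM per kb and Enpep 83.0 ± 27.7 CPM per kb. Mep1b and Ace were the neighbours whose order changed most often, and their SDs overlapped. Dpp4 had 43.9 ± 8.05 CPM per kb, below Enpep in 39 of 39 libraries. Naaladl1 had 29.4 ± 7.88 CPM per kb and was below Dpp4 in 38 of 39 libraries. The lowest levels were those of Mep1a, at 8.58 ± 1.99 CPM per kb, and Xpnpep2, at 3.62 ± 1.04 CPM per kb. The meprin subunits thus stood far apart, with Mep1b next below Anpep and Mep1a next above Xpnpep2.

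In the GRCm38 assembly (GENCODE vM21), Anpep lies on chromosome 7, 79821803 to 79861059, minus strand, with 23 merged exon blocks. Enpep lies on chromosome 3, 129269175 to 129332720, minus strand. Xpnpep2 lies on chromosome X, 48108725 to 48136981, plus strand, and Naaladl1 on chromosome 19, 6105782 to 6115792, plus strand. Dpp4 lies on chromosome 2, 62330073 to 62412231, minus strand, and Ace on chromosome 11, 105967945 to 105989964, plus strand. Mep1a lies on chromosome 17, 43474324 to 43502812, minus strand. The antisense genes Gm11651 and Gm13561 overlap 3506 exon bases of Ace and 2743 exon bases of Dpp4. Neither antisense gene is in the table, and the libraries were strand-specific, but the strand setting of the counting is not given in the sources used here, so antisense reads in the Ace and Dpp4 counts cannot be told apart.

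The 250 bases before the start sites of Xpnpep2 and Dpp4 are shown because Xpnpep2 had the largest averaged rise of the 8 with antibiotic while Dpp4 did not pass, as described next, and because their RefSeq start sites coincide with the GENCODE gene ends. Both are from RefSeq on GRCm38.p6, written 5′ to 3′ on the strand of the gene, chrX:48108475-48108724 (plus) for Xpnpep2 and chr2:62412232-62412481 (minus) for Dpp4.
Xpnpep2: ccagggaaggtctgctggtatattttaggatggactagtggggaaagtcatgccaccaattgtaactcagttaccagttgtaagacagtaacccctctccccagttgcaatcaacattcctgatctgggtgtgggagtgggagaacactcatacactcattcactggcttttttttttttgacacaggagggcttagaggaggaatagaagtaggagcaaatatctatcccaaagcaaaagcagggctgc
Dpp4: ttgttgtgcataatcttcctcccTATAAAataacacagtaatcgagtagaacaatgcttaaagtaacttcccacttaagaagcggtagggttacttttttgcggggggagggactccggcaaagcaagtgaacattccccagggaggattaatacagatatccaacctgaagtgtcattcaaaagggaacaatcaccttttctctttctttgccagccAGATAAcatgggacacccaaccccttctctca
Capitals mark matches, on either strand, to 5 short motifs named for factors of intestinal or general promoters. None of the matches overlapped another. Dpp4 held AGATAA from position -32 and TATAAA from position -227 relative to the start site, and Xpnpep2 held none of the 5 motifs. Of 32851 promoter windows of the same length, 9.99% held the GATA motif, spelled AGATAA, and 12.4% held the TATA box, searched for as TATAAA. The motif named for the factor HNF1, with the letters GTTAAT, was in 6.43% of the windows. The motif named for HNF4-type receptors, with the letters CAAAGT, was in 12.6%, and the motif named for CDX factors, with the letters TTTATG, was in 10.8%. Of the 8 members, 6 were in the promoter table. Among these, Anpep held none of the motifs, Mep1a held CAAAGT from position -29, Ace held the reverse complements of CAAAGT from position -102 and of TATAAA from position -31 at its first start site, and Enpep held the reverse complement of TATAAA from position -52. These matches are descriptions of letters in the windows and show no binding. The Anpep window (chr7:79848211-79848460, minus) lies inside the GENCODE gene, and which start site the duodenum uses was not examined. For Enpep, the bases checked after the start site were not in a GENCODE transcript of the gene. The GC content was 46.0% for Xpnpep2, 43.6% for Dpp4, 41.6% for Mep1a and 72.8% for Anpep.

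The drink comparison asked whether oral antibiotics for 48 h changed the duodenal transcripts, and it was made within set MT, where both drinks were given. Averaged over leptin-injected and saline-injected mice, 5 of the 8 transcripts rose with antibiotic, namely Xpnpep2, Naaladl1, Anpep, Enpep and Mep1a, by 1.29-fold to 1.59-fold, against 6.45% of all 16340 genes tested that passed in either direction and 4.24% that rose. Dpp4, Ace and Mep1b did not pass. The average over both injections was chosen after the data had been seen, and the members with earlier results of these data known. The shares over all genes, here and below, are therefore given for description and are not a test of the list. All 8 log2 fold changes were positive, as were 49.7% of all genes, and their median was 0.41, against -0.00075 over all genes tested. With the high-pancreas libraries left out the count was 6 of 8, the same 5 and Ace, with log2 fold changes of 0.72 for Xpnpep2, 0.70 for Naaladl1, 0.68 for Anpep, 0.54 for Enpep and 0.38 for Mep1a. Leaving out Leptin-water 9 gave a count of 2, and leaving out Saline-antibiotic 4, Leptin-water 8 or Saline-water 12 gave 3.

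**Figure D1:**
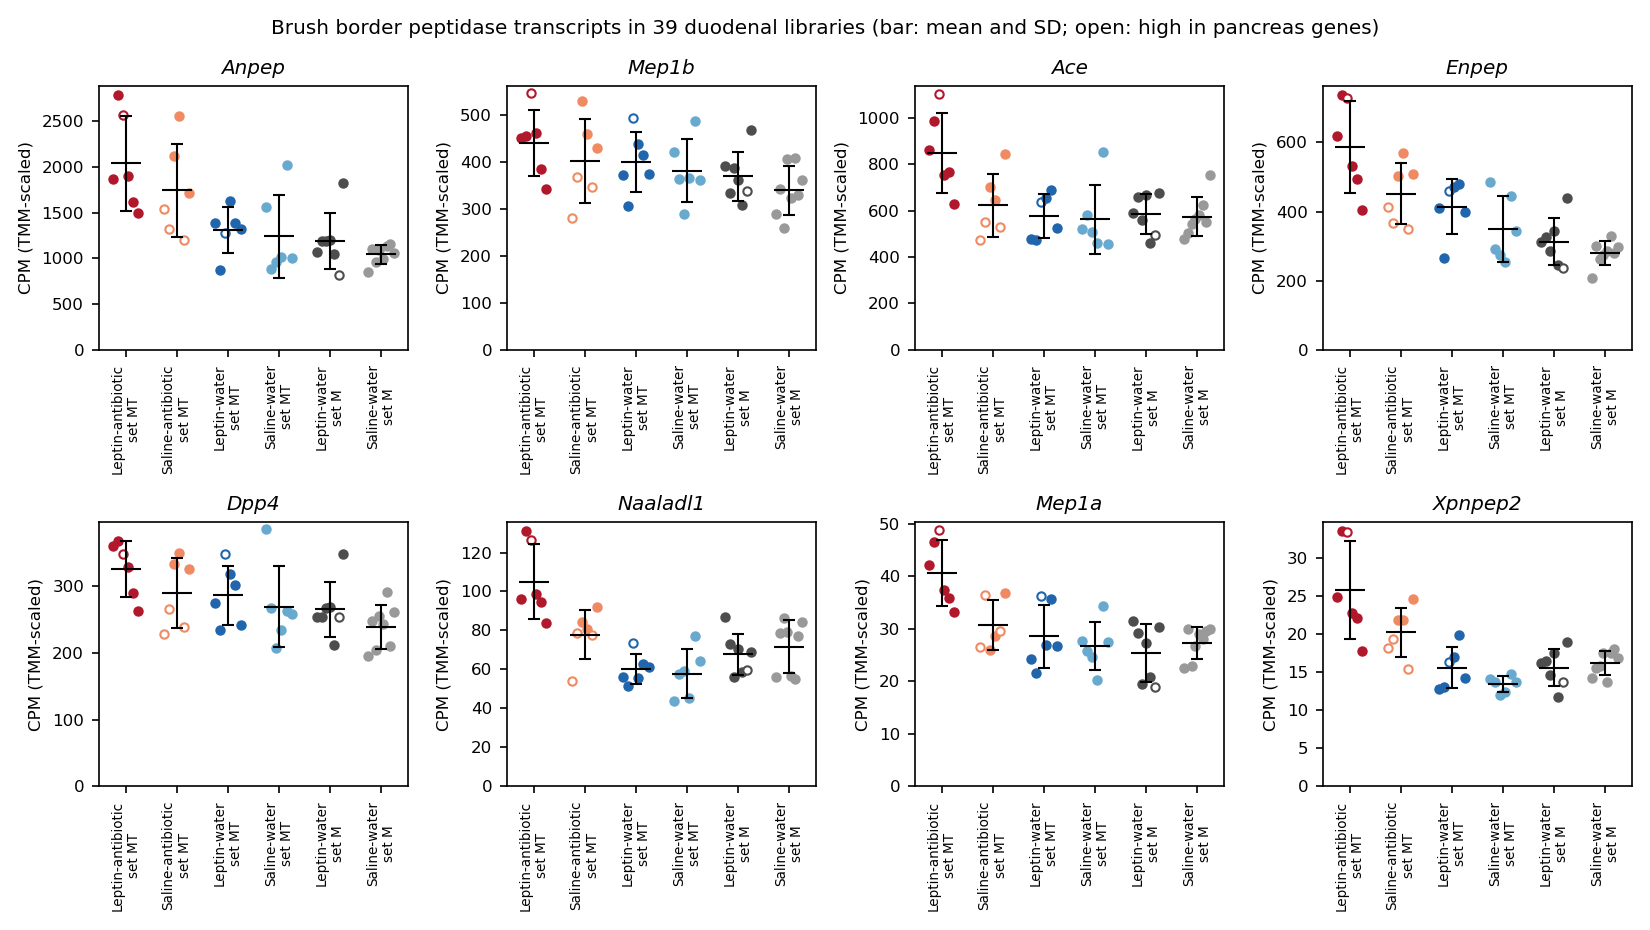
Level of each transcript in CPM after TMM scaling (vertical axis, from 0) in each of the 39 libraries, by group and set (horizontal axis), with the mean and SD as black bars and open circles for the 6 libraries high in pancreas genes. For Naaladl1 the 6 Leptin-antibiotic libraries (83.6 to 131 CPM) lie above all 6 Leptin-water libraries of set MT (51.3 to 73.4 CPM).

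Taken by injection, 3 of the 8 transcripts rose with antibiotic in leptin mice, against 2.28% of all genes tested, and the comparison in saline mice called none of them, against 0.196% of all genes. The 3 were Naaladl1, Xpnpep2 and Mep1a. All 8 fold changes were positive in both injections, as were 47.8% of all genes in leptin mice and 51.8% in saline mice, with medians of 0.55 in leptin mice and 0.30 in saline mice, against -0.010 and 0.0075 over all genes tested. The comparison in saline mice had 12.5% of all genes at an unadjusted p under 0.05, and 4 of the 8 (Xpnpep2, Naaladl1, Anpep and Enpep) were among them. DESeq2 called 1 of the 8 in saline mice, Xpnpep2 (adjusted p = 0.0113), and limma voom called 1, Naaladl1 (adjusted p = 0.0397). The difference between the injections was tested as the interaction term, which called 0% of all genes, the 8 included, and had 6.38% at an unadjusted p under 0.05. The largest interactions among the members were those of Ace at 0.41 and Naaladl1 at 0.38 on the log2 scale, both with an adjusted p of 0.772 (edgeR), so a larger antibiotic effect in leptin mice was not shown. DESeq2 and limma voom also called 0 genes for the interaction.

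Xpnpep2, which encodes membrane aminopeptidase P, had 17.9, 23.8 and 33.6 CPM in Leptin-antibiotic libraries (lowest, median and highest of 6), against 12.8, 15.3 and 19.9 CPM in Leptin-water libraries. In Saline-antibiotic libraries it had 15.4, 20.6 and 24.7 CPM, against 12.0, 13.7 and 14.8 CPM in Saline-water libraries. All 6 Saline-antibiotic libraries were above all 6 Saline-water libraries, which held for 0.392% of all genes, while 5 of 6 Leptin-antibiotic libraries were above every Leptin-water library. The log2 fold change was 0.74 in leptin mice (SE 0.14, adjusted p = 0.00645, edgeR) and 0.60 in saline mice (SE 0.14, adjusted p = 0.0686). The adjusted p in saline mice was 0.0496 without the high-pancreas libraries, which left Saline-antibiotic 3, 4 and 6. Over both injections the value was 0.67 (SE 0.10, adjusted p = 0.000317), a 1.59-fold difference.

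Naaladl1, the relative of glutamate carboxypeptidase II, had 83.6, 97.5 and 131 CPM in Leptin-antibiotic libraries, against 51.3, 58.7 and 73.4 CPM in Leptin-water libraries. In Saline-antibiotic libraries it had 54.1, 79.7 and 92.2 CPM, against 43.9, 58.4 and 77.2 CPM in Saline-water libraries. Within set MT the leptin-injected groups did not overlap, which held for 1.83% of all genes in that direction. In the saline-injected groups of that set 5 of 6 antibiotic libraries were above every water library. The exception was Saline-antibiotic 1, at 54.1 CPM, which is a high-pancreas library. In set M, where all mice drank water, Naaladl1 had 56.0, 68.9 and 87.1 CPM in Leptin-water libraries. Saline-water libraries of set M had 55.0, 77.9 and 86.3 CPM. The highest Leptin-water library of set M was thus above the lowest Leptin-antibiotic library. The log2 fold change was 0.82 in leptin mice (SE 0.14, adjusted p = 0.00349) and 0.44 in saline mice (SE 0.14, adjusted p = 0.182). Over both injections it was 0.63 (SE 0.097, adjusted p = 0.000449), a 1.55-fold difference.

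Anpep, encoding aminopeptidase N, had 1500, 1884 and 2786 CPM in Leptin-antibiotic libraries, against 869, 1354 and 1632 CPM in Leptin-water libraries. In Saline-antibiotic libraries it had 1201, 1628 and 2552 CPM, against 889, 1008 and 2023 CPM in Saline-water libraries. Both pairs of groups overlapped, and the highest water library was Saline-water 13 at 2023 CPM. The log2 fold change was 0.65 in leptin mice (SE 0.21, adjusted p = 0.0979), 0.50 in saline mice (SE 0.21, adjusted p = 0.340) and 0.57 over both (SE 0.15, adjusted p = 0.0230), a 1.49-fold difference that passed only in the average. The averaged call was lost without Leptin-water 9 or Saline-antibiotic 4, with an adjusted p of up to 0.0528.

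Enpep, encoding aminopeptidase A, had 404, 575 and 737 CPM in Leptin-antibiotic libraries, against 266, 435 and 479 CPM in Leptin-water libraries. In Saline-antibiotic libraries it had 349, 459 and 569 CPM, against 255, 319 and 485 CPM in Saline-water libraries. In leptin mice 5 of 6 antibiotic libraries were above every water library, and in saline mice 3 of 6 were. The log2 fold change was 0.51 in leptin mice (SE 0.18, adjusted p = 0.114), 0.38 in saline mice (SE 0.18, adjusted p = 0.381) and 0.45 over both (SE 0.12, adjusted p = 0.0340). The averaged call for Enpep was kept in 12 of the 24 fits that left out a single library, with adjusted p-values of 0.0148 to 0.0681.

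The dipeptide-releasing enzymes Ace and Dpp4 did not pass in any of the 3 antibiotic comparisons. Ace had 629, 814 and 1103 CPM in Leptin-antibiotic libraries, against 473, 582 and 690 CPM in Leptin-water libraries, and 473, 596 and 842 CPM in Saline-antibiotic libraries, against 457, 514 and 852 CPM in Saline-water libraries. In leptin mice 5 of 6 antibiotic libraries were above every water library, whereas in saline mice none was. The log2 fold change of Ace was 0.57 in leptin mice (SE 0.16, adjusted p = 0.0576), where 4 of 9 alternative fits and 4 of 24 fits without a single library called it, and 0.16 in saline mice (SE 0.16, adjusted p = 0.719). Averaged over both injections it was 0.36 (SE 0.11, 95% interval 0.14 to 0.59, adjusted p = 0.0554), and it passed without the high-pancreas libraries (0.45, adjusted p = 0.0235).

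Dpp4, the incretin-inactivating peptidase, had 263, 338 and 368 CPM in Leptin-antibiotic libraries, against 234, 289 and 348 CPM in Leptin-water libraries, and 228, 296 and 350 CPM in Saline-antibiotic libraries, against 208, 261 and 386 CPM in Saline-water libraries. The groups overlapped in both injections, and the highest value of the 24 was in Saline-water 9. Its averaged log2 fold change was 0.16 (SE 0.097, adjusted p = 0.343), with a 95% interval of -0.03 to 0.35 that holds changes of up to 0.35 on the log2 scale. Without the high-pancreas libraries the value was 0.29 (adjusted p = 0.0775).

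The meprin subunits differed in their calls. Mep1a had 33.1, 39.7 and 48.7 CPM in Leptin-antibiotic libraries, against 21.6, 26.8 and 36.2 CPM in Leptin-water libraries, and 26.0, 29.1 and 36.9 CPM in Saline-antibiotic libraries, against 20.2, 26.6 and 34.3 CPM in Saline-water libraries. In leptin mice 4 of 6 antibiotic libraries were above every water library, and in saline mice 2 of 6 were. Its log2 fold change was 0.52 in leptin mice (SE 0.14, adjusted p = 0.0424), 0.21 in saline mice (SE 0.14, adjusted p = 0.536) and 0.37 over both (SE 0.096, adjusted p = 0.0231). The call in leptin mice was lost without the high-pancreas libraries (0.54, adjusted p = 0.0618) and was kept in 11 of 24 fits that left out a single library.

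Mep1b, the more abundant subunit per kilobase, had 341, 453 and 547 CPM in Leptin-antibiotic libraries, against 307, 395 and 494 CPM in Leptin-water libraries, and 280, 399 and 531 CPM in Saline-antibiotic libraries, against 289, 365 and 488 CPM in Saline-water libraries. These ranges overlapped almost wholly. The averaged log2 fold change was 0.12 (SE 0.10, 95% interval -0.08 to 0.32, adjusted p = 0.518), and it was 0.24 without the high-pancreas libraries (adjusted p = 0.112).

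**Figure D2:**
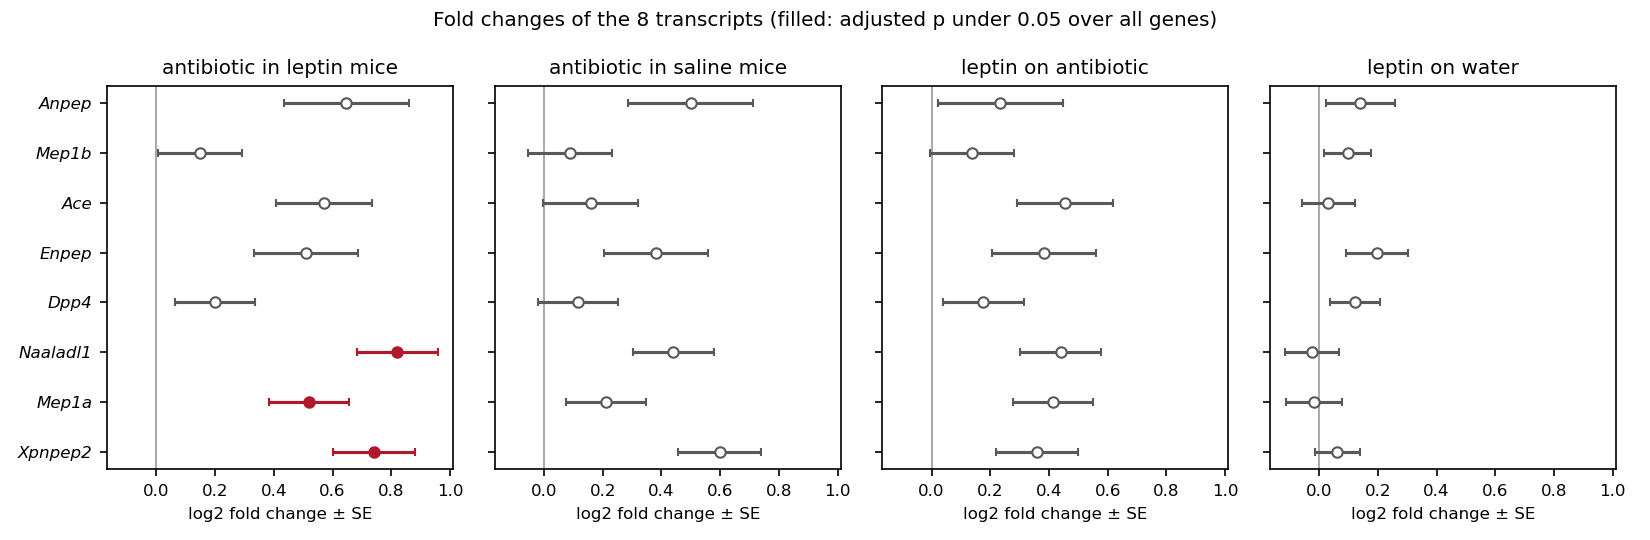
Log2 fold change with its standard error (horizontal axis) of each of the 8 transcripts (rows, from the highest to the lowest CPM per kb) in 4 comparisons, with filled symbols for an adjusted p under 0.05. Filled symbols occur only for antibiotic in leptin mice, for Naaladl1 (0.82), Xpnpep2 (0.74) and Mep1a (0.52).

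Whether the members changed unequally was tested on ratios within a library, which do not depend on the scaling of the library. For each member, its log2 CPM minus the mean log2 CPM of the other 7 was compared between antibiotic and water libraries of set MT by an exact two-sided permutation test within each injection, giving 8 tests. Relative to the other 7, Mep1b was lower with antibiotic by -0.35 (exact p = 2.11e-05, adjusted over the 8 ratios 0.000169) and Dpp4 by -0.29 (exact p = 0.00063, adjusted 0.00168). Xpnpep2 was higher by 0.27 (exact p = 6.09e-05, adjusted 0.000244) and Naaladl1 by 0.24 (exact p = 0.00918, adjusted 0.0184). The ratios of Anpep (0.18, exact p = 0.0882), Enpep (0.043), Mep1a (-0.048) and Ace (-0.058) did not pass, with exact p-values of 0.381 to 0.553 for Enpep, Mep1a and Ace. The signs of the 4 ratios that passed were the same in leptin mice and in saline mice, with Mep1b at -0.42 and -0.28, Dpp4 at -0.36 and -0.22, Xpnpep2 at 0.23 and 0.31, and Naaladl1 at 0.34 and 0.15. A ratio shows unequal change among the 8 and not that any of them was unaltered. Each ratio holds all 8 members, so a rise in the ratios of some requires a fall in those of others. The 8 tests are therefore not independent.

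The same ratios were taken against the mean of 18 genes of the microvillus scaffold, the actin, cross-linking and adhesion proteins that shape the brush border. That mean includes Tmigd1, whose averaged log2 fold change with antibiotic was 1.79, the largest of the 18. The rise of Tmigd1 lowers each of these ratios by an amount that was not computed, and no ratio was taken without it. Naaladl1 was higher with antibiotic relative to the scaffold by 0.38 (exact p = 2.81e-05, adjusted over the 8 ratios 0.000225) and Xpnpep2 by 0.41 (exact p = 6.56e-05, adjusted 0.000262). The other 6 did not pass after adjustment. Their values were 0.33 for Anpep (exact p = 0.0191, adjusted 0.0509), -0.13 for Mep1b (exact p = 0.0394, adjusted 0.0788), 0.21 for Enpep (exact p = 0.0697, adjusted 0.112), -0.08 for Dpp4, 0.12 for Ace and 0.13 for Mep1a.

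Injection of leptin was compared with saline separately on each drink, to ask whether brain leptin changed the transcripts within 2 h. In mice on antibiotic, none of the 8 passed, against 0.514% of all genes tested, with 17.2% of all genes at an unadjusted p under 0.05. All 8 fold changes were positive, as were 46.4% of all genes, with a median of 0.37 against -0.017 over all genes tested. The largest were those of Ace at 0.45 (SE 0.16, adjusted p = 0.167), Naaladl1 at 0.44 (SE 0.14, adjusted p = 0.116), Mep1a at 0.41 (SE 0.14, adjusted p = 0.137), Enpep at 0.38 (SE 0.18, adjusted p = 0.265) and Xpnpep2 at 0.36 (SE 0.14, adjusted p = 0.193). These 5 had an unadjusted p under 0.05. DESeq2 called 1 of the 8, Naaladl1 (adjusted p = 0.0445), and limma voom called none. Without the high-pancreas libraries, Mep1b, Anpep and Dpp4 had negative values (-0.17, -0.14 and -0.06), and the values were 0.36 for Mep1a, 0.24 for Naaladl1, 0.13 for Ace, 0.089 for Xpnpep2 and 0.082 for Enpep. In this comparison all 14 enterocyte markers had positive values too, with a median of 0.37, and 19 of 22 exocrine pancreas genes had negative values, with a median of -1.04. Negative values were also found for 11 of 12 stem and proliferating crypt genes (median -0.264), 12 of 12 smooth muscle genes (median -0.142), 9 of 12 pericyte and fibroblast genes (median -0.13) and 9 of 11 stomach and Brunner gland genes (median -0.0749). None of the genes of these lists was called. The part of these shifts in the members' values was not tested, beyond leaving out those libraries.

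On water (27 libraries, fitted with a term for set), none of the 8 passed, against 0.312% of all genes tested, and none had an unadjusted p under 0.05, which 11.4% of all genes had. DESeq2, limma voom and every other alternative fit also called none of the 8 in this comparison. The values lay between -0.02 for Naaladl1 and 0.20 for Enpep (SE 0.11, 95% interval -0.010 to 0.40, adjusted p = 0.497), with a median of 0.080. Enpep in set M had 237, 312 and 439 CPM in Leptin-water libraries, against 208, 283 and 330 CPM in Saline-water libraries. Anpep in set M had 822, 1185 and 1821 CPM in Leptin-water libraries, against 846, 1075 and 1155 CPM in Saline-water libraries. The groups overlapped for both genes in both sets. For Xpnpep2, at 0.06, the 95% interval was -0.09 to 0.21, and for Naaladl1 it was -0.20 to 0.15. The leptin effect on water did not differ detectably between the sets for any member (0.0428% of all genes passed, and none of the 8 had an unadjusted p under 0.05 in edgeR or passed in DESeq2 or limma voom). The closest was Xpnpep2, whose leptin effect was 0.22 in set MT, against -0.06 in set M, a difference of 0.28 (adjusted p = 0.543). The antibiotic and leptin comparisons of set MT share libraries, so their values for a member are not independent of each other.

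The sets were compared in saline mice on water, since both hold that group. Between the Saline-water libraries of set MT (6) and set M (8), 1 of the 8 transcripts passed, against 12.2% of all genes tested. That count is close to the share over all genes. Xpnpep2 had 12.0, 13.7 and 14.8 CPM in set MT (lowest, median and highest), against 13.8, 16.4 and 18.1 CPM in set M. None of the 6 set MT libraries was above the set M median, and 4 of them were below every set M library. The log2 fold change was -0.27 (SE 0.077, adjusted p = 0.0304). That call was lost in 7 of the 14 fits that left out a single library, with adjusted p-values of up to 0.0709. Naaladl1 was at -0.32 (SE 0.14, adjusted p = 0.140) and Enpep at 0.31 (SE 0.14, adjusted p = 0.139), and neither passed. With antibiotic, Xpnpep2 averaged 25.8 ± 6.43 CPM in Leptin-antibiotic and 20.2 ± 3.27 CPM in Saline-antibiotic libraries (SD, n = 6 each), against 15.6 ± 2.42 CPM in Leptin-water (n = 7) and 16.2 ± 1.59 CPM in Saline-water libraries (n = 8) of set M. No antibiotic was given in set M, so drink was not tested across the sets.

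Genes of the surrounding digestive pathway were counted from lists drawn up for this purpose. Averaged over both injections, antibiotic raised 3 of 14 other membrane peptidase genes, by lowest p Dpep1 (0.50, adjusted p = 0.00703), Enpp7 (1.30, adjusted p = 0.00743) and the neprilysin gene Mme (0.45, adjusted p = 0.0139). Dpep1 encodes a dipeptidase that hydrolyses dipeptides at the membrane. Enpp7, which encodes alkaline sphingomyelinase, is not a peptidase although it stood in that list. The median of the 14 was 0.034, against 0.41 for the 8 members. Of 20 genes listed as cytosolic peptidases, whose substrates differ, 4 rose. They were led by the carnosine dipeptidase gene Cndp2 (0.56, adjusted p = 0.00117), the prolidase gene Pepd (0.43, adjusted p = 0.00404) and the cytosolic aminopeptidase P gene Xpnpep1 (0.24, adjusted p = 0.0302). The fourth was Lta4h, and none fell.

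Among 17 peptide and amino acid transporter genes, 4 rose and none fell with antibiotic on average, with a median of 0.19. They were Slc7a8 (0.63, adjusted p = 0.000284), Slc16a10 (0.41, adjusted p = 0.00462) and Slc7a7 (0.30, adjusted p = 0.00702), which serve the basolateral exit of amino acids, and Slc43a2. Of 9 disaccharidase and sugar transporter genes 3 rose, namely the trehalase gene Treh (0.42, adjusted p = 0.00481), Slc2a7 (0.39, adjusted p = 0.00620) and the lactase gene Lct (0.52, adjusted p = 0.0329), and the median was 0.24. Of 18 microvillus scaffold genes 4 rose, with Tmigd1 (1.79, adjusted p = 0.000165), Slc9a3r1 (0.38, adjusted p = 0.0139) and Myo7b (0.22, adjusted p = 0.0311) the lowest in p and Myo1a the fourth, and the median was 0.17. None of 15 enterocyte transcription factor genes passed, with a median of -0.010. In leptin mice alone, 2 of the 14 other membrane peptidase, 2 of the 20 cytosolic peptidase, 5 of the 17 transporter, 2 of the 9 sugar-handling and 3 of the 18 scaffold genes rose. In saline mice alone, Tmigd1 was the single gene called in these 6 lists (1.67, adjusted p = 0.0437).

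**Figure D3:**
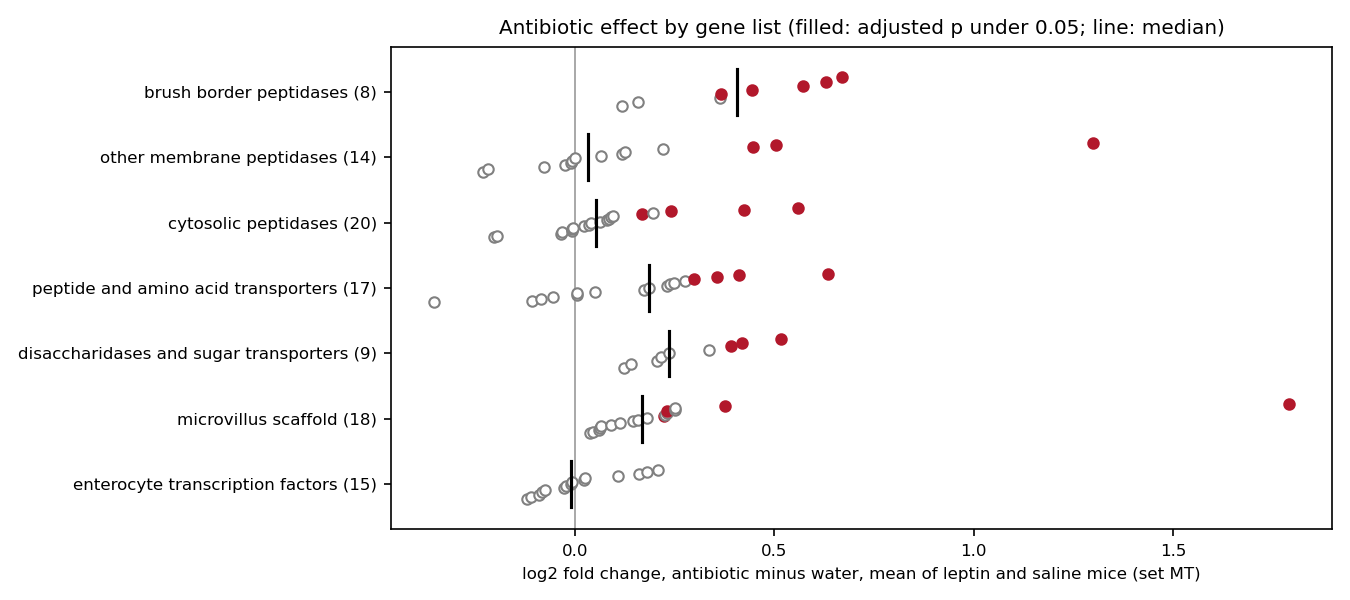
Log2 fold change of antibiotic against water, averaged over leptin and saline mice of set MT (horizontal axis), for each gene of 7 lists (rows, with the number of genes tested), with filled points for an adjusted p under 0.05 and a line at the median. The median of the 8 brush border peptidases is 0.41, and those of the other lists shown are between -0.010 and 0.24. Marker lists of cell types are not shown. Among them, the 14 enterocyte markers had a median of 0.31, with 13 positive, and no member was set against their mean in this comparison.

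Marker lists of cell types moved beside these values. Averaged over both injections, antibiotic raised 5 of 14 enterocyte markers (Fabp2, Apoa4, Apoc3, Rbp2 and Ckmt1) and lowered 1 (Cyp3a11), with a median of 0.31 over the 14. It raised 3 of 12 smooth muscle genes (Actg2, Tagln and Tpm2), with a median of 0.27, and 1 of 22 exocrine pancreas genes, with a median of 1.99 and 21 of 22 positive. The median of 12 stem and proliferating crypt genes was 0.019, with none called. All 13 macrophage and dendritic cell genes had negative values, with a median of -0.221, and Adgre1 and Clec9a fell. All 10 T cell genes had negative values, with a median of -0.229 and none called, and so had 11 of 12 endothelial genes, with a median of -0.0596. Of 7 genes marking the duodenum 6 had negative values (median -0.105), and 2 fell, S100g and Trpv6, which serve calcium absorption. Of 3 measured genes marking the distal ileum, Slc10a2, the bile acid transporter gene, rose. The other 2 had negative values, and the median of the 3 was -0.0437. Of 10 villus tip genes 7 had positive values (median 0.135), and 2 rose, Tmigd1 (also in the scaffold list) and Pmp22. Stomach and Brunner gland genes were positive in 10 of 11 (median 0.255) and pericyte and fibroblast genes in 4 of 12 (median -0.0072), with none called. The part of these shifts in the members' values was not tested. With pancreas and smooth muscle scores as covariates the 5 averaged calls were all kept, and Ace and Dpp4 passed as well. That fit held no score for the enterocyte markers, the immune cell genes or the other lists, so it says nothing about their part.

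Within groups, the 8 transcripts varied together from library to library. After log2 CPM was centred within each set and group, all 28 pairs had a positive Pearson correlation over the 39 libraries, with a median of 0.673. By permutation within groups, 27 of 28 passed an adjusted p of 0.05. The share of other gene pairs that would pass was not computed, so this count is not shown to be particular to the 8. The closest pair was Anpep with Enpep, at r = 0.895 (Spearman's rho 0.881, permutation p = 1e-05 for both), and 0.888 without the 2 libraries farthest out. The least correlated pair was Dpp4 with Naaladl1, at r = 0.211 (rho 0.259, permutation p = 0.245), and 0.375 without the 2 libraries farthest out. All values share the depth and tissue makeup of a library, so the correlations describe these libraries. Each member was also correlated with the mean of 5 marker lists, and differences between these correlations were not tested. Naaladl1 had r = 0.821 with the mean of the enterocyte markers (Spearman's rho 0.806, permutation p = 1e-05 for both, the smallest the 100000 permutations can give), and 0.773 without the 2 libraries farthest out. Ace (r = 0.640), Xpnpep2 (0.605), Mep1a (0.571) and Mep1b (0.501) passed with the same score too, with adjusted permutation p-values of 0.00107 to 0.0261. Dpp4 and Enpep, both at r = 0.370, and Anpep at r = 0.236 (rho 0.247, permutation p = 0.223) did not. Dpp4 had r = -0.615 with the stomach and Brunner gland genes (rho -0.602, permutation p = 3e-05), and -0.513 without the 2 libraries farthest out. Enpep (r = -0.523, adjusted permutation p = 0.00833) and Anpep (r = -0.456, adjusted permutation p = 0.0366) passed with these genes as well. After adjustment over the 40 pairs of member and score, these values were 0.0004 for Naaladl1, 0.372 for Anpep and 0.0006 for Dpp4.

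**Figure D4:**
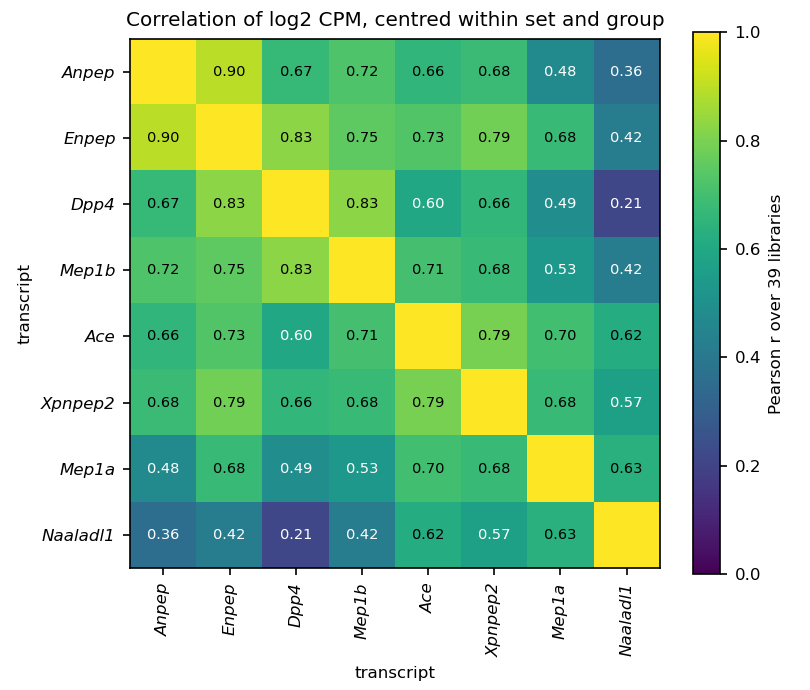
Pearson correlation of log2 CPM, centred within set and group, between the 8 transcripts (both axes) over 39 libraries. Values run from 0.211 for Dpp4 with Naaladl1 to 0.895 for Anpep with Enpep.

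Among 9708 other named genes of mean log2 CPM 3 or more, those most like the mean of the 8 transcripts in this within-group variation included Slc3a2 (r = 0.916 over 39 libraries), Atp1b1 (0.911), Ckmt1 (0.902), Slc7a7 (0.889), Dlst (0.882), Slc15a1 (0.879), Epb41l3 (0.877), Sec31a (0.873) and Myo1a (0.871). Slc3a2 and Slc7a7 encode the subunits of a basolateral transporter of cationic amino acids, and Slc15a1 encodes the apical transporter of dipeptides and tripeptides. By member, the closest 3 genes were Soat2 (0.846), Cnot9 (0.840) and Slc43a2 (0.833) for Anpep, and Atp1b1 (0.888), Slc3a2 (0.849) and Dlst (0.847) for Enpep. They were Slc3a2 (0.871), Acsl5 (0.856) and Dlst (0.837) for Xpnpep2, and Tm4sf5 (0.846), Pdzk1 (0.838) and Fbxo25 (0.827) for Naaladl1. For Dpp4 they were Slc13a1 (0.865), Cycs (0.863) and Cdh17 (0.847), and for Ace Sec31a (0.881), Smim24 (0.864) and Gdpd2 (0.864). For Mep1a they were Tmem98 (0.835), Acadl (0.787) and Cfb (0.783), and for Mep1b they included Cdh17 (0.903) and Ms4a8a (0.902). Cdh17 was thus among the closest 3 for both Mep1b and Dpp4, the members whose lower ratio to the other 7 with antibiotic passed the threshold.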

How the data were processed

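The deposited table holds unnormalised counts of reads for 16358 gene symbols in 39 libraries, filtered by the authors. Per the labels' protocols, libraries were strand-specific and made from 150 ng of total RNA after ribosomal depletion. FastQC, HISAT2, featureCounts, edgeR 3.42.0 and mm10 appear in the submitters' processing notes. No filter rule, annotation or strand setting for the counting is given in the sources used here. Rn45s, a ribosomal transcript, made up 2.87% to 13.3% of a library.

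Counts were tested with the quasi-likelihood F test of edgeR 4.0.16 (R 4.3.3), with TMM factors, filterByExpr and Benjamini-Hochberg adjustment over all genes tested, at a threshold of 0.05. All adjusted p-values of single genes come from this test unless another tool is named. The fit of the 24 libraries of set MT gave the antibiotic comparisons, leptin on antibiotic and the interaction. The 27 water libraries gave leptin on water (set as a term) and its difference between sets, and the 14 Saline-water libraries gave the sets. A standard error is the log2 fold change divided by the root of F, and 95% intervals use the normal multiple of that error. CPM values follow TMM scaling over all 39 libraries, and log2 CPM has a prior count of 2. Levels per kilobase use the merged exons of GENCODE vM21. Permutation and correlation tests were computed with numpy in Python 3.11.15, with ranks from scipy 1.17.1 and adjustment by statsmodels. Figures used matplotlib 3.10.9, and the fits were tested on simulated data. Of 100 genes changed by 0.5 on the log2 scale, 89% were called for leptin on water and 60% for leptin on antibiotic. Of 100 genes changed by 1, 96% and 95% were called, and smaller changes were not simulated. A member that did not pass may thus have changed by 0.5 or less. Libraries of the same set and group were compared in 109 pairs, none of which agreed within sampling noise (lowest chi-square per degree of freedom 19.7).

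The members and lists were chosen with earlier results of these data known, and so was the list of libraries high in pancreas genes. From each pathway list, up to 3 genes with the lowest p are named, with values where they passed, and further called genes are named without. DESeq2 1.42.0, limma 3.58.1 (voom with quality weights), other scaling, no filter, covariates, library subsets and leaving out each library were the alternatives.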

Additional observations from a re-analysis of the deposited data

Results flagged for a closer look

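In 48 groups of libraries (8 transcripts in 6 groups of a set), the highest or lowest library was compared with its nearest neighbour, and 4 groups held a library that stood apart. Chance gives such a gap in about 1 in 20 groups. Anpep was at 1821 CPM in Leptin-water 7 of set M, against 1196 CPM in the next library. Dpp4 was highest in the same library, at 349.1 CPM, against 268.2 CPM in the next. In set MT, Dpp4 was at 386.2 CPM in Saline-water 9, against 267.0 CPM in the next library, and Ace was at 851.7 CPM in Saline-water 13, against 581.6 CPM in the next. Each of the 4 was the highest library of its group, and all 4 were water libraries.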

How the results depend on the processing

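Bulk tissue, 6 libraries a group and a handful of libraries with pancreas RNA limit these values. The 8 antibiotic values averaged over both injections stayed positive in all 8 alternative fits and in all 24 fits without a single library, and Xpnpep2 and Naaladl1 stayed past the threshold in each of them and in each such fit for leptin mice. Over the 64 log2 fold changes of the members, 529 of 576 alternative values kept their sign and side of the threshold, 26 changed sign, 16 were newly called and 5 lost the call. None of the values that changed sign was called, and the cause was not tested.

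The count of members called for antibiotic in leptin mice was 6 with pancreas and smooth muscle scores as covariates. In saline mice it was 1 with DESeq2, with voom, with those covariates and without the high-pancreas libraries. It was 1 with DESeq2 for leptin on antibiotic, and 0 with the covariates for set MT against set M. Leaving out each library gave 2 to 6 members for the averaged antibiotic effect, 2 to 4 in leptin mice and 0 to 1 for the sets. The count over all genes ranged, over the alternatives, from 950 to 2201 for the averaged effect (1054 as reported), from 205 to 1750 in leptin mice (372), from 0 to 183 in saline mice (32), from 0 to 443 for leptin on antibiotic (84), from 0 to 173 for leptin on water (51), from 0 to 75 for the leptin effect by set (7) and from 938 to 2738 for the sets (1997). Leaving out each library gave 575 to 1226, 73 to 650, 14 to 100, 9 to 183, 10 to 147, 0 to 36 and 1394 to 2193 in the same order.

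For leptin on water, set M alone gave Xpnpep2 -0.055, and set MT alone gave Naaladl1 0.052 and Mep1a 0.097. For leptin on antibiotic, leaving out the high-pancreas libraries gave Anpep -0.14, Dpp4 -0.061 and Mep1b -0.17. For the interaction, the same gave Anpep -0.23, Dpp4 -0.093, Enpep -0.14, Mep1b -0.18 and Xpnpep2 -0.11, and voom gave Anpep -0.17, Dpp4 -0.0497, Enpep -0.13 and Mep1b -0.076. For the leptin effect by set, voom gave Anpep 0.18, Dpp4 0.049 and Mep1b 0.043, and the covariates gave Enpep -0.024. Ace was there at -0.022 with upper quartile factors, -0.048 without the high-pancreas libraries and -0.23 with the covariates. For the sets, the covariates gave Ace 0.16 and Mep1a 0.11.

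Without single libraries, the values that changed sign ran from -0.058 to 0.017 for Naaladl1 and from -0.058 to 0.022 for Mep1a (leptin on water), and from -0.0082 to 0.17 for Mep1b (antibiotic in saline mice). They ran from -0.044 to 0.27 for Anpep, -0.060 to 0.15 for Dpp4 and -0.042 to 0.16 for Mep1b (interaction). They ran from -0.18 to 0.079 for Anpep, -0.13 to 0.065 for Dpp4, -0.062 to 0.15 for Ace and -0.12 to 0.024 for Mep1b (leptin effect by set), and from -0.19 to 0.030 for Ace and -0.12 to 0.030 for Mep1a (sets).

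Replicate numbers did not pair the libraries. Same-numbered leptin and saline libraries correlated at -0.212 to 0.503 on antibiotic (1 of 6 pairs over 0.1), at -0.197 to 0.206 on water in set M (3 of 7) and at -0.12 to -0.00968 on water in set MT (0 of 5). With the replicate number as a block, 0 members passed for leptin on water, leptin on antibiotic and the leptin effect by set, and 0, 13 and 0 of all genes did. The replicate block gave Naaladl1 0.028 for leptin on water and Ace -0.017 for the leptin effect by set.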
